A study of Mus musculus with 18 samples.

Results

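Livers of high and of low lipogenic expression were compared within each diet of a mouse feeding study, 9 livers against 9 of 18 in all. The members were chosen by measured values: each liver was scored by the mean log2 expression of Fasn, Acly, Elovl6 and Thrsp. Within each diet the 3 livers with the highest score were called high and the 3 with the lowest score low, so every array is a member of the split and none was left over. Expression is log2 of the deposited array intensity plus 16, with the median of the tested genes brought to the same level on every array. The study itself fed male C57BL/6J mice (the strain field of the labels reads C56BL/6J) the purified diet AIN93G alone or with the plant flavonol quercetin at 0.05% or 1%, for 20 weeks. The mice were 5 weeks old when the diets started, had lived on a standard nonpurified diet before that and were kept in the dark from 0800 to 2000. All groups shared strain, sex, base diet and killing under pentobarbital, the labels name no allele or transgene, and quercetin is the single difference they give. Each group had 12 mice in cages of 3, and 6 mice of each group have an array of liver RNA, 1 mouse per array. The labels give neither the cage nor the hour at which a mouse was killed. None of the 153 pairs of arrays was identical, and the correlations between arrays over all probe sets lay between 0.968 and 0.987.

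Hepatic de novo lipogenesis turns carbohydrate into fat. Glucose and fructose are broken down to pyruvate, citrate leaves the mitochondria, ATP citrate lyase (Acly) splits it to acetyl-CoA, fatty acid synthase (Fasn) builds palmitate from it, and the elongase Elovl6 lengthens palmitate. Thrsp, also called Spot 14, is a small protein of lipogenic tissues that follows feeding and thyroid hormone. The programme is driven by the transcription factors SREBP-1c, the product of Srebf1, which answers to insulin, and ChREBP, the product of Mlxipl, which answers to sugar phosphates. SREBP-2 drives cholesterol synthesis. Lipogenic transcripts of mouse liver swing strongly with feeding and the hour of the day.

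The score itself differed widely between mice on the same diet. In controls it was 12.43, 11.88 and 11.73 in the 3 high and 10.86, 10.74 and 10.01 in the 3 low livers. At 0.05% quercetin it was 11.56, 11.47 and 11.42 in high and 10.66, 10.13 and 9.80 in low livers. At 1% quercetin it was 10.63, 10.46 and 9.997 in high and 9.95, 9.76 and 9.65 in low livers. The distance between the lowest high liver and the highest low liver was 0.87 in the control group and 0.76 in the 0.05% group, but 0.05 in the 1% group. In the 1% group the line therefore ran between replicate 2, called high at 9.997, and replicate 3, called low at 9.95. The difference between high and low means was 1.48 in controls, 1.28 at 0.05% quercetin and 0.57 at 1% quercetin. The high livers of the 1% group had a mean score of 10.36, below the mean of 10.53 of the low livers of the control group. High and low are therefore ranks within a diet and not levels shared by the diets. Class followed the replicate number in 2 diets: the high livers were replicates 1, 2 and 3 in controls and replicates 4, 5 and 6 at 0.05%, while at 1% they were replicates 2, 5 and 6. The labels do not say what the number stands for, so within the control group, and within the 0.05% group, anything shared by mice of neighbouring numbers and the class cannot be told apart. In a least squares fit with replicate number beside diet and class, an alternative chosen after seeing the data, Fasn differed by 1.34, Thrsp by 1.27, Elovl6 by 1.03 and Acly by 0.85. That fit gives each number 1 level for all diets, so it cannot remove what neighbouring numbers share within a single diet. These 4 genes also drew the classes.

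The 4 score genes chose the livers, so their differences are given as a description with no test, as are all other differences between high and low livers below, which come from the same arrays. The 3 high control livers had Fasn values of 12.65, 12.18 and 12.05 and the 3 low ones 10.82, 10.31 and 9.72. At 0.05% quercetin the values were 11.73, 11.67 and 11.49 in high and 11.01, 10.20 and 9.35 in low livers. At 1% they were 10.30, 10.19 and 9.85 in high and 9.94, 9.75 and 9.499 in low livers. The control and 0.05% livers did not overlap between the classes, while the 1% livers did. Thrsp values were 13.30, 12.72 and 12.59 in high and 11.77, 11.59 and 10.43 in low control livers. The 0.05% livers gave 12.25, 12.02 and 11.91 in the high and 11.34, 10.72 and 10.67 in the low class. Those of the 1% group gave 11.36, 11.08 and 10.38 in the high and 10.58, 9.60 and 9.25 in the low class. Again only the 1% livers overlapped. In controls Acly stood at 12.18, 11.80 and 11.76 in high and 11.19, 10.97 and 10.38 in low livers. At 0.05% quercetin it stood at 11.89, 11.81 and 11.70 in high and 11.12, 10.33 and 10.17 in low livers. With 1% quercetin it stood at 10.92, 10.79 and 10.48 in high and 10.67, 10.66 and 10.53 in low livers. For Acly the 1% livers overlapped almost completely. High control livers gave Elovl6 values of 11.61, 10.94 and 10.38, and low control livers 9.90, 9.81 and 9.497. For the 0.05% diet these were 10.56, 10.45 and 10.31 in high and 9.33, 9.18 and 8.96 in low livers. For the 1% diet they were 10.08, 10.08 and 8.85 in high and 9.07, 8.97 and 8.95 in low livers. Of the 1% livers, replicates 5 and 6 stood above the other 4, and replicate 2, which is called high, had the lowest Elovl6 of the group. The mean of the 3 within-diet differences, high minus low, was 1.296 ± 0.27 for Thrsp, 1.28 ± 0.82 for Fasn, 1.06 ± 0.34 for Elovl6 and 0.81 ± 0.62 for Acly, where the error is the SD over the 3 diets (n = 3 diets), as in all differences below. Fasn differed by 2.01, 1.44 and 0.38 in the control, 0.05% and 1% groups, and Acly by 1.07, 1.26 and 0.11. The plot of the score and its genes by array shows this narrowing in the 1% group.

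**Figure D1:**
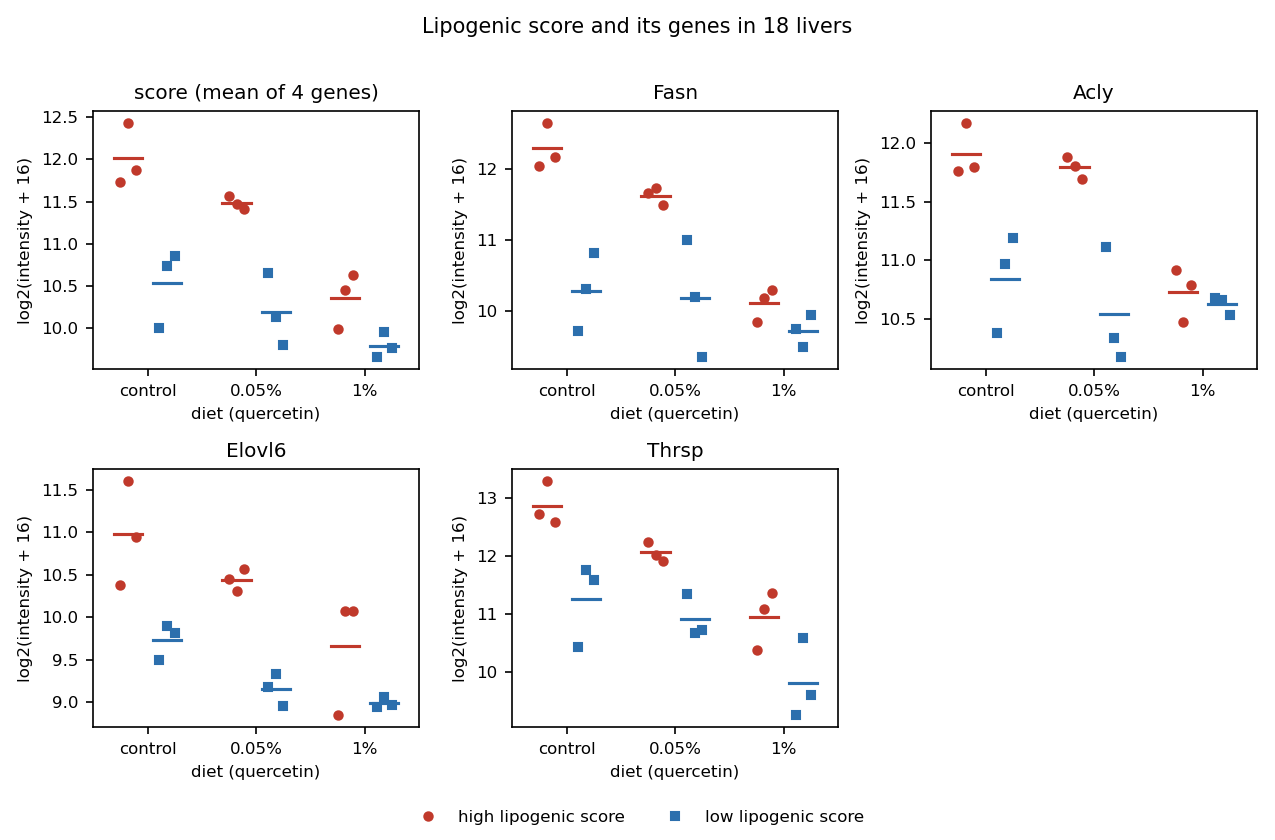
Lipogenic score (mean of Fasn, Acly, Elovl6 and Thrsp) and each of its genes, as log2(intensity + 16), in 18 livers by diet. Circles are the 3 high livers and squares the 3 low livers of a diet, and lines are their means. Scores of the 1% group run from 9.65 to 10.63 with a gap of 0.05 between the classes, against gaps of 0.87 and 0.76 in the control and 0.05% groups.

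The promoter windows of the score genes and of Pklr, the glycolytic gene of the results below, are shown because these genes were high together in the same livers. The sequences are from RefSeq (GRCm38.p6), 250 bases before to 50 after each annotated start, and are written 5' to 3' on the gene's strand in lower case. Capitals mark matches on either strand to the E-box CACGTG, the sterol response element TCACNCCAC, the CCAAT box CCAAT and the carbohydrate response element, searched as a pair of E-box-like sites 5 bases apart. The GC box GGGCGG was also searched and is not capitalised. Of the 2 windows that RefSeq gives for Pklr, the second is shown.
Fasn, chr11:120824498-120824797, minus strand: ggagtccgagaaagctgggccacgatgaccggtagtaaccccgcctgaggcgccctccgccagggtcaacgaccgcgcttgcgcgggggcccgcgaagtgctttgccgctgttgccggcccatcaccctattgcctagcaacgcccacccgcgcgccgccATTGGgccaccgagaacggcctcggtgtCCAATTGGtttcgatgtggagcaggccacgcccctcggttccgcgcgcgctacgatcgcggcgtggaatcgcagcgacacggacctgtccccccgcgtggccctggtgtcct
Acly, chr11:100527951-100528250, minus strand: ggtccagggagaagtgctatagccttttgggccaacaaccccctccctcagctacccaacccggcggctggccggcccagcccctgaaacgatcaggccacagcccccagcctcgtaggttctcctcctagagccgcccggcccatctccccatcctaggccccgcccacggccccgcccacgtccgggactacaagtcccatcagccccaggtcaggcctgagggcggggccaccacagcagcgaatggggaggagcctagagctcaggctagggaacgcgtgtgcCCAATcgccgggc
Elovl6, chr3:129532136-129532435, plus strand: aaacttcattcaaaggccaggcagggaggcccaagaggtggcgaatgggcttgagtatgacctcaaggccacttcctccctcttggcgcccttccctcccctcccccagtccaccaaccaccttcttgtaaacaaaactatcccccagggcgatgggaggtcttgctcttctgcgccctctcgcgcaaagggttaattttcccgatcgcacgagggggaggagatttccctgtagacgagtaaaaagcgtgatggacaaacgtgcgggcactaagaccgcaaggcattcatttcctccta
Thrsp, chr7:97417501-97417800, minus strand: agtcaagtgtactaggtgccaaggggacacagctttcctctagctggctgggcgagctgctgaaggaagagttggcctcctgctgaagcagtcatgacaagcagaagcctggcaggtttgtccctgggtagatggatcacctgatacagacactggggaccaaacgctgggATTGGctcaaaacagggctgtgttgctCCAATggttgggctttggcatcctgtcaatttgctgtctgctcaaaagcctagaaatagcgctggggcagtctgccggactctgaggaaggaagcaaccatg
Pklr, chr3:89136373-89136672, plus strand: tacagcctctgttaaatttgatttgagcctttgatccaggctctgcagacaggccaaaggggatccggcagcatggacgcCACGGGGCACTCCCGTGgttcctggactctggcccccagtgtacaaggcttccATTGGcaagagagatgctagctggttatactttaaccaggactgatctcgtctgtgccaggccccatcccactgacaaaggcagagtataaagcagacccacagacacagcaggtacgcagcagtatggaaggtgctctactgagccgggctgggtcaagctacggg
The Fasn window holds 3 CCAAT matches, of which 2 overlap on opposite strands, from base -62 to -58 and from -59 to -55 counted from the start. Thrsp holds 2 CCAAT matches and Acly 1, and Acly also holds 4 GC boxes. None of the 5 motifs was found in the window of Elovl6, which says only that these letters are not in these 300 bases. Pklr holds the carbohydrate response element from base -170 to -154 and a CCAAT match from -117 to -113. Over all 32851 windows of this length, 37.4% held a CCAAT box, 35.7% a GC box, 7.15% the E-box, 1.24% the sterol element and 0.0457% the carbohydrate element. Among 16 genes of cholesterol synthesis with a window, all 16 held a CCAAT box in at least 1 of their windows, beside 42.4% of 10406 tested genes counted the same way. In the acute phase list 3 of 25 genes did.

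Array quality differed between the classes in parts of the data. Before array medians were equalised, they lay 0.09 to 0.23 above their common level in the high livers of the 0.05% group and between -0.27 and -0.01 from it in the low livers, so that high livers of this group were brighter as deposited. In the control and 1% groups these medians overlapped. The 3' minus 5' signal of the Gapdh control probe sets, which is larger where RNA is shorter, lay between -0.22 and -0.16 in high and between -0.07 and 0.07 in low control livers. At 0.05% it lay between -0.32 and -0.26 in high and between -0.16 and -0.02 in low livers. At 1% it overlapped, while the actin measure lay between 1.09 and 1.18 in high and between 1.32 and 1.34 in low livers. The part of these values in the differences described below was not tested.

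Of the 12885 genes tested above the intensity filter, 21 were higher (0.163%) and 8 lower (0.0621%) in all 3 high livers than in all 3 low livers of each diet. On values as deposited, with no shift between arrays, the counts were 7 higher and 1 lower. With array medians set over all probe sets they were 34 and 1. Within a single diet far more genes met the same criterion, 1645 higher (12.8%) and 1286 lower (9.98%) in controls, 1331 higher (10.3%) and 1634 lower (12.7%) at 0.05% quercetin, and 636 higher (4.94%) and 514 lower (3.99%) at 1%. In both the control and the 0.05% group 427 were higher (3.31%) and 253 lower (1.96%). The median difference over all tested genes was -0.01, and the 95th percentile of the absolute difference was 0.37. The 29 genes depend on the 2 livers of the 1% group next to the line. Scoring without Fasn or without Acly exchanged those 2 livers, and 20 genes then met the criterion, none of them among the 29. With those 2 livers left out, an alternative chosen after seeing the data, 102 genes were higher and 24 lower. Leaving livers out only loosens the criterion, so all 29 had to be among them. Leaving out a single liver, which loosens it too, gave 21 to 81 higher and 10 to 31 lower genes. Without any 1% replicate in turn the higher genes numbered at least 36, and 81 without 1% replicate 3. The lower genes numbered 31 without 1% replicate 4, and between 13 and 18 without control replicate 1, 4 or 6, 0.05% replicate 1 or 1% replicate 2, 3, 5 or 6.

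Pklr, the liver pyruvate kinase that closes glycolysis and a textbook ChREBP target, had the largest difference of the 21 higher genes. The 3 high control livers had Pklr values of 10.47, 10.06 and 10.04 and the 3 low ones 9.42, 9.08 and 8.47. At 0.05% quercetin the values were 9.91, 9.87 and 9.86 in high and 9.28, 8.92 and 8.57 in low livers. At 1% they were 9.35, 9.23 and 9.12 in high and 9.002, 8.74 and 8.40 in low livers. No low liver of a diet reached the high livers of that diet. The difference was 0.89 ± 0.34, and its other probe sets above the filter gave 0.74 and 0.79. Anks4b, an ankyrin repeat scaffold protein, was higher by 0.65 ± 0.42. Glycogen enzymes were also among the 21. Gbe1 values were 10.72, 10.34 and 10.34 in high and 9.99, 9.88 and 9.65 in low control livers. The 0.05% livers gave 10.60, 10.53 and 10.38 in the high and 10.07, 9.74 and 9.71 in the low class. Those of the 1% group gave 10.13, 10.11 and 10.03 in the high and 9.94, 9.80 and 9.61 in the low class. Gbe1, the glycogen branching enzyme, was thus higher by 0.53 ± 0.20, and Gys2, the liver glycogen synthase, by 0.22 ± 0.10 with its narrowest step in the 0.05% group, where the lowest high liver had 10.04 and the highest low liver 10.03. Gys2 was separated in 6 of 19 alternative settings of scaling, constant, probe set rule, filter, score and livers, and Gbe1 in 15. Some of these settings could not lose a gene. Scoring without Elovl6 or without Thrsp kept the same livers. Taking 2 against 2 livers, leaving out the 1% livers at the line, or using only the control and 0.05% livers loosened the criterion. Apart from these, Gys2 was separated only with the filter at the 60th percentile. Papss2, which makes the donor for sulfation, differed by 0.43 ± 0.13. Acy1, an aminoacylase, differed by 0.41 ± 0.10 and Mtfp1, a mitochondrial fission protein, by 0.42 ± 0.06. Bckdhb, a subunit of the branched-chain keto acid dehydrogenase, and Dap3, a protein of the mitochondrial ribosome, both named after their values were seen, differed by 0.26 ± 0.09 and 0.31 ± 0.07. The other large differences among the 21 were in Tex12 (0.43 ± 0.17), Cmbl (0.39 ± 0.23), the glutathione enzyme Ggct (0.37 ± 0.22), the aminopeptidase Enpep (0.33 ± 0.07), the amino acid sensing kinase Eif2ak4 (0.33 ± 0.13) and the sestrin Sesn3 (0.32 ± 0.11).

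Among the 8 lower genes, H6pd makes NADPH inside the endoplasmic reticulum. In controls H6pd stood at 10.53, 10.40 and 10.30 in high and 11.20, 10.92 and 10.88 in low livers. At 0.05% quercetin it stood at 10.65, 10.55 and 10.51 in high and 11.16, 11.06 and 10.69 in low livers. With 1% quercetin it stood at 10.98, 10.92 and 10.90 in high and 11.40, 11.24 and 11.15 in low livers. It was lower in every high liver than in the low livers of its diet, by -0.44 ± 0.13. Most other NADPH enzymes, described below, had the other sign in the control and 0.05% groups, but 7 of the 9 in that list, H6pd included, were under 0 at 1%. Ifngr2, a chain of the interferon gamma receptor, differed by -0.43 ± 0.10, Thoc2l by -0.48 ± 0.10 and the orphan receptor Gprc5a by -0.38 ± 0.14. The transcript 9130023H24Rik differed by -0.38 ± 0.08, Tasor2 by -0.30 ± 0.07, Cdk2ap1 by -0.27 ± 0.04 and Fiz1 by -0.15 ± 0.06. In 19 alternative settings H6pd was separated in 15, Ifngr2 in 11, Tasor2 in 8, 9130023H24Rik and Cdk2ap1 in 6 each and Fiz1 in 5. In 18 settings Gprc5a was separated in 7 and Thoc2l in 5. These counts include the settings given with Gys2 that could not lose a gene. None of the 8 reached a mean difference of 0.5, while 3 of the 21 higher genes did (Pklr, Anks4b and Gbe1).

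**Figure D2:**
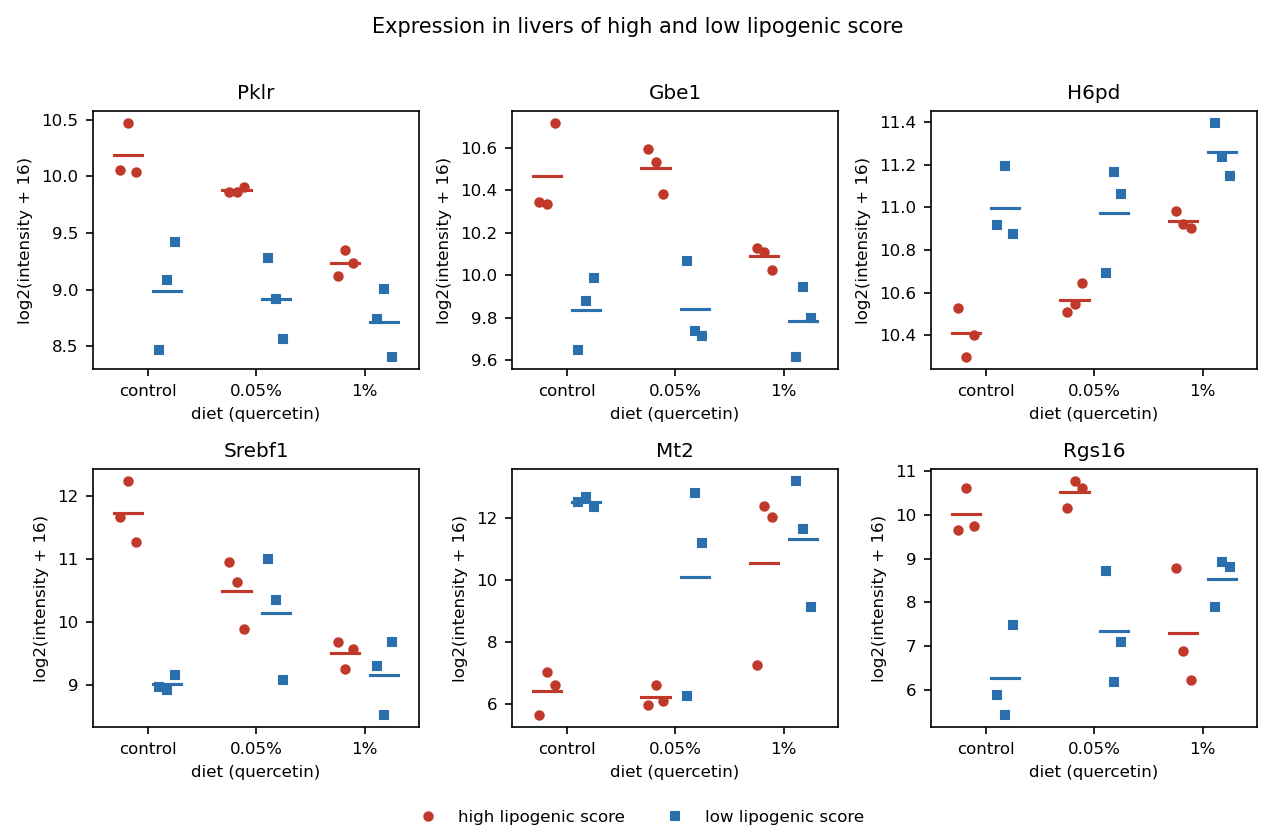
Expression of Pklr, Gbe1, H6pd, Srebf1, Mt2 and Rgs16 as log2(intensity + 16) in 18 livers by diet. Circles are high and squares low livers, and lines are means of 3. Pklr, Gbe1 and H6pd separate the classes in every diet, Srebf1 in controls only, Mt2 in controls only, and Rgs16 in the control and 0.05% groups.

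The other enzymes of fatty acid synthesis were mostly higher in the high livers. Of 20 listed and tested, 17 had a mean difference above 0, beside 6042 of all 12885 genes (46.9%). Their median difference was 0.30, with medians of 0.37, 0.49 and 0.09 in the control, 0.05% and 1% groups. In controls 9 of the 20 were separated and higher, at 0.05% 11 and at 1% 2, beside 12.8%, 10.3% and 4.94% of all tested genes. None was separated in all 3 diets. Aacs, which activates acetoacetate for lipid synthesis in the cytosol, had the largest difference of the list. High control livers gave Aacs values of 9.81, 9.64 and 8.43, and low control livers 7.60, 6.91 and 6.77. For the 0.05% diet these were 8.33, 8.13 and 7.87 in high and 7.62, 6.999 and 5.98 in low livers. For the 1% diet they were 7.49, 7.41 and 7.28 in high and 7.35, 7.27 and 6.98 in low livers. The classes did not overlap in the control and 0.05% groups and overlapped at 1%, and the difference was 1.21 ± 1.01. Other members were Acacb and Acaca, the acetyl-CoA carboxylases that make malonyl-CoA (0.88 ± 0.67 and 0.56 ± 0.26), the malic enzyme Me1 (0.68 ± 0.42), and Pnpla3, a lipid droplet protein of lipogenic liver (0.59 ± 0.44). Acss2, which makes acetyl-CoA from acetate and is named after its values were seen, differed by 0.81 ± 0.69. For Acacb the control livers overlapped and differed by 0.15, against 1.46 at 0.05% and 1.02 at 1%. The desaturases Fads2 and Fads1 differed by 0.54 ± 0.40 and 0.26 ± 0.27, and the elongase Elovl5 by 0.34 ± 0.25. The desaturase Scd1 behaved differently on its brightest probe set. The 3 high control livers had Scd1 values of 13.65, 13.59 and 13.55 and the 3 low ones 13.54, 13.46 and 13.41. At 0.05% quercetin the values were 13.40, 13.38 and 13.27 in high and 13.71, 13.52 and 13.51 in low livers. At 1% they were 13.46, 13.42 and 13.39 in high and 13.59, 13.46 and 13.16 in low livers. It was separated and higher in controls and separated and lower at 0.05%, by small amounts, and the mean difference was -0.03 ± 0.18. All 18 values lay between 13.16 and 13.71, near the top of the range of these arrays. Its other probe set, with means of 11.35 and 10.58 in high and low livers, differed by 0.77. The male-biased elongase Elovl3, also chosen after its values were seen, differed by -0.32 ± 0.37.

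In triglyceride assembly the entry enzyme had the largest difference. Gpam values were 12.53, 12.31 and 12.03 in high and 10.95, 10.90 and 10.82 in low control livers. The 0.05% livers gave 12.40, 12.13 and 11.88 in the high and 11.22, 10.96 and 10.60 in the low class. Those of the 1% group gave 11.05, 10.93 and 10.89 in the high and 10.95, 10.60 and 10.46 in the low class. Gpam, which attaches the acyl chain that starts glycerolipid synthesis, was higher by 0.97 ± 0.60, with no overlap in the control and 0.05% groups. Of the 10 tested members 9 were above 0, with a median of 0.12. Dgat2, which adds the last chain, was higher in controls (0.52) and at 1% (0.25), where the classes did not overlap, and not at 0.05% (0.00). Lpin1, the phosphatidate phosphatase of the step before, overlapped in every diet, at 0.01 ± 0.49.

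Among the transcription factors behind the programme, Srebf1 differed most in controls. In controls Srebf1 stood at 12.24, 11.66 and 11.27 in high and 9.16, 8.96 and 8.91 in low livers. At 0.05% quercetin it stood at 10.95, 10.63 and 9.88 in high and 11.000, 10.35 and 9.07 in low livers. With 1% quercetin it stood at 9.67, 9.57 and 9.26 in high and 9.67, 9.30 and 8.51 in low livers. The 3 high control livers stood more than 2 log2 units above the 3 low ones, whereas the 0.05% and 1% livers overlapped, so that Srebf1 had differences of 2.71, 0.35 and 0.34. Mid1ip1, the paralogue of Thrsp that activates acetyl-CoA carboxylase, gave 1.93, 0.36 and 0.49, and Insig1, which holds SREBP back in the endoplasmic reticulum and is itself an SREBP target, gave 1.22, 0.13 and 0.24. Both are named after their values were seen. Mlxipl, which encodes ChREBP, was separated in controls (0.60) and at 0.05% (0.39) and not at 1% (-0.08). Insig2 was separated and higher at 0.05% (0.30) and separated and lower at 1% (-0.37). The liver X receptor gene Nr1h3 (0.08 ± 0.17), Pparg (0.19 ± 0.71) and Ppara (0.00 ± 0.13) had small or inconstant differences. Over the 20 tested regulators 15 were above 0, with a median of 0.08. In controls 10 of the 20 were separated and higher, at 0.05% 3 and at 1% 0, beside 12.8%, 10.3% and 4.94% of all tested genes.

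In the list of glycolysis and fructose use 11 of 14 tested members were above 0, with a median of 0.26 and medians of 0.35, 0.24 and 0.09 by diet. Besides Pklr, and named after their values were seen, they included the glucose transporter Slc2a2 (0.52 ± 0.55), the fructokinase Khk (0.36 ± 0.15) and Pdk1 (0.69 ± 0.56), a kinase that restrains pyruvate dehydrogenase. Of 9 NADPH and pentose phosphate enzymes 8 were above 0, H6pd being the exception. Their median was 0.20, and by diet 0.37, 0.28 and -0.04. The last value is 0.02 when array medians are set over all probe sets.

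Cholesterol synthesis was the list in which every tested member was above 0, 20 of 20, with a median of 0.47 and medians of 0.44, 0.71 and 0.21 in the control, 0.05% and 1% groups. The lowest member was Srebf2 at 0.08 ± 0.22, the gene of SREBP-2 itself. In controls 11 of the 20 were separated and higher, at 0.05% 11 and at 1% 1, beside 12.8%, 10.3% and 4.94% of all tested genes. No member of the list was separated and lower in any diet. Mvd, the mevalonate diphosphate decarboxylase, had the largest difference. High control livers gave Mvd values of 7.79, 7.51 and 7.44, and low control livers 6.97, 6.51 and 6.36. For the 0.05% diet these were 7.33, 7.08 and 6.36 in high and 6.70, 6.49 and 6.23 in low livers. For the 1% diet they were 7.18, 6.51 and 5.91 in high and 6.12, 5.81 and 5.13 in low livers. The classes overlapped at 0.05% and 1%, and the difference was 0.75 ± 0.27. Dhcr7, which makes cholesterol from its last precursor and was chosen after its values were seen, differed by a like amount in every diet. The 3 high control livers had Dhcr7 values of 9.15, 8.95 and 8.55 and the 3 low ones 8.41, 8.15 and 8.02. At 0.05% quercetin the values were 8.74, 8.73 and 8.35 in high and 8.15, 7.79 and 7.58 in low livers. At 1% they were 9.31, 8.37 and 7.81 in high and 8.18, 8.14 and 7.31 in low livers. The difference was 0.69 ± 0.07, although the 1% livers overlapped. Fdps, Msmo1 and Idi1, further enzymes of the pathway picked in the same way, differed by 0.73 ± 0.49, 0.69 ± 0.25 and 0.64 ± 0.37. Across arrays the mean of the cholesterol list, centred on all 18, lay between 0.11 and 0.37 in high and between -0.23 and -0.01 in low control livers. At 0.05% it lay between -0.12 and 0.44 in high and between -0.70 and -0.20 in low livers. At 1% it overlapped. The plot of within-diet differences shows the 3 enzyme lists side by side.

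**Figure D3:**
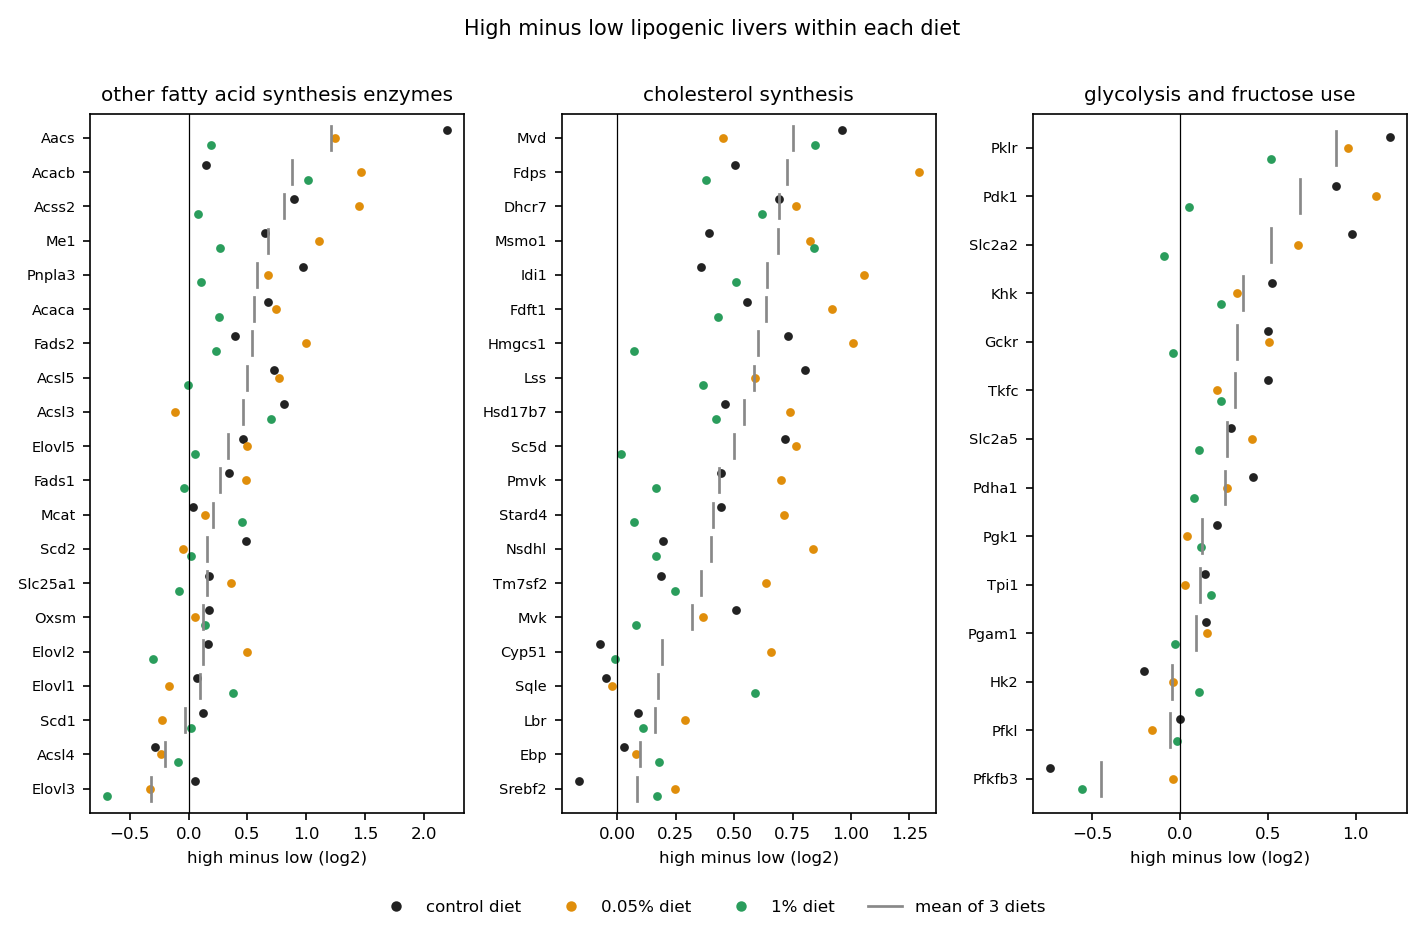
High minus low difference (log2) of each tested enzyme of fatty acid synthesis, cholesterol synthesis and glycolysis, within the control, 0.05% and 1% quercetin groups (dots, each 3 against 3 livers) and as the mean of the 3 diets (grey bars). All 20 cholesterol genes have a mean above 0, and the median of the 1% dots is 0.21 for that list and 0.09 for each of the others.

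Acute phase genes, which liver makes in inflammation under interleukin signals, were lower in the high livers of the control and 0.05% groups. All 28 tested members had a mean difference under 0, with a median of -0.49, but the diets did not agree: the medians were -1.02 in controls, -0.80 at 0.05% and 0.37 at 1%. In controls 19 of the 28 were separated and lower, at 0.05% 16 and at 1% 0, beside 9.98%, 12.7% and 3.99% of all tested genes. The metallothionein gene Mt2 had the largest difference of the list and of all 12885 genes. Mt2 values were 7.04, 6.61 and 5.64 in high and 12.68, 12.51 and 12.38 in low control livers. The 0.05% livers gave 6.62, 6.10 and 5.97 in the high and 12.81, 11.21 and 6.27 in the low class. Those of the 1% group gave 12.39, 12.05 and 7.27 in the high and 13.21, 11.65 and 9.13 in the low class. All 3 low control livers were more than 5 log2 units above all 3 high ones. At 0.05% replicates 2 and 3 were far above the high livers and replicate 1, also a low liver, lay among them, and at 1% the classes overlapped. In controls Saa2 stood at 9.43, 9.25 and 8.06 in high and 13.30, 13.21 and 11.90 in low livers. At 0.05% quercetin it stood at 7.54, 7.51 and 7.44 in high and 13.37, 13.18 and 9.92 in low livers. With 1% quercetin it stood at 13.24, 13.10 and 9.85 in high and 10.63, 10.59 and 10.36 in low livers. Saa2, a serum amyloid A gene, separated in the control and 0.05% groups, while its highest 1% values were in 2 high livers. Mt1 (-3.23 ± 2.63), Saa1 (-1.66 ± 2.16), Lcn2 (-1.84 ± 4.17), Orm2 (-1.49 ± 3.27) and Saa3 (-1.36 ± 3.12) were alike in having opposite signs or strongly different sizes by diet. All but Lcn2, the leading member of the neutrophil list, were named after their values were seen. Mt1 gave -0.43 on its second, dimmer probe set. The interleukin 6 receptor gene Il6ra, picked in the same way, was lower in all 3 diets by a like amount, -0.75 ± 0.09, with overlap in the control and 1% groups. Il1r1, an interleukin 1 receptor gene outside the list, gave -1.27 ± 0.91. The mean of the list by array lay between -0.87 and -0.58 in high and between 0.35 and 1.11 in low control livers. At 0.05% it lay between -1.12 and -1.02 in high and between -0.81 and 1.29 in low livers, and at 1% between -0.40 and 1.05 in high and -0.28 and 0.26 in low livers. The low 1% livers thus had no list mean as high as that of 1% replicates 5 and 6, which are high livers.

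Markers of other cells were examined in the same way. All 19 tested markers of Kupffer cells and macrophages had a mean difference under 0, with a median of -0.24 and medians of -0.31, -0.48 and 0.12 by diet. In a piece of liver, fewer cells of a type and less RNA per cell cannot be told apart. At 0.05% the list mean lay between -0.34 and -0.22 in high and between 0.13 and 0.23 in low livers. In that group 15 of 19 markers were separated and lower, beside 12.7% of all tested genes. The median of -0.48 in that group becomes -0.18 on values as deposited. On those values the median of all tested genes was 0.28 at 0.05% and 0.06 for the mean of the 3 diets, which applies to the deposited medians below too. Marco, a scavenger receptor of Kupffer cells, differed by -1.26 at 0.05% and by -0.22 and 0.15 in the control and 1% groups. All 10 tested neutrophil markers were also under 0. Their median was -0.27, with -0.71 in controls, 0.17 at 1%, and -0.26 at 0.05%, which becomes 0.05 on values as deposited. Lcn2 stands in this list too and is made by hepatocytes in the acute phase. The calprotectin gene S100a8, chosen after its values were seen, differed by -2.88 in controls, -0.43 at 0.05% and 0.82 at 1%. Ltf, Camp, Cxcr2, Retnlg and Ly6g of the neutrophil list were not among the tested genes. All 12 hepatocyte markers on the array were above the filter. Their median was -0.08, and -0.01 on values as deposited. By diet the medians were 0.07, -0.26 and 0.02, and the value at 0.05% becomes 0.04 as deposited. With array medians equalised, 8 of the 12 were separated and lower at 0.05%, beside 12.7% of all tested genes. The largest difference among them was in the hepatocyte factor Hnf4a, at -0.37 ± 0.10. Of 9 tested adipocyte markers 5 were above 0, with a median of 0.07, which is -0.09 without control replicate 3. Adipoq was below the filter. Endothelial (median 0.04), stellate (-0.07) and lymphocyte (0.02) lists had medians near 0. The part of inflammatory and marker levels in the lipogenic differences was not tested.

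**Figure D4:**
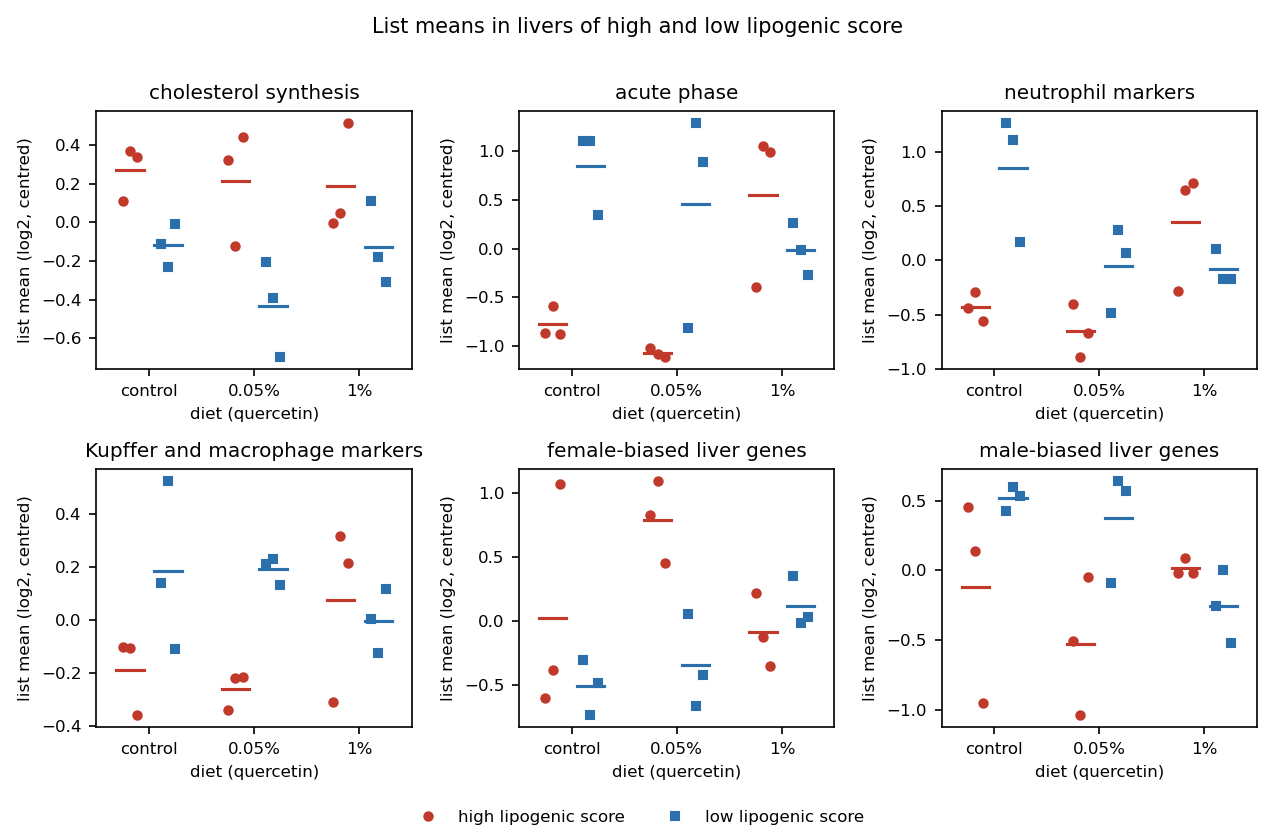
Mean of the tested members of 6 gene lists (log2, each gene centred on its mean over 18 livers) in each liver by diet. Circles are high and squares low livers, and lines are means of 3. Acute phase means of the control group run from -0.87 to -0.58 in high and 0.35 to 1.11 in low livers, and overlap in the 1% group.

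Genes with a known sex bias in mouse liver differed among these male mice. Of 11 female-biased genes tested 9 were above 0, with a median of 0.69, and of 14 male-biased genes 12 were under 0, with a median of -0.35. By diet the female-biased medians were 0.65, 1.28 and -0.13, and the male-biased medians -0.32, -0.52 and 0.07. A few livers carried these values. Among high livers the female-biased mean was 1.07 in control replicate 3 and between 0.46 and 1.10 at 0.05%, while the other high control livers had -0.61 and -0.39. Without control replicate 3 the medians were 0.41 and -0.24. High control livers gave Moxd1 values of 8.84, 8.002 and 4.09, and low control livers 11.51, 11.21 and 10.55. For the 0.05% diet these were 3.95, 3.84 and 3.83 in high and 10.73, 10.14 and 4.39 in low livers. For the 1% diet they were 8.76, 8.02 and 4.22 in high and 4.35, 4.14 and 3.86 in low livers. Moxd1, the male-biased monooxygenase-like gene with the largest difference, was thus near the bottom of its range in 4 of the 6 high livers of the control and 0.05% groups and in 1 low liver of the 0.05% group. Cyp2b9, a female-biased cytochrome P450, gave 1.34, 2.16 and -0.08, resting on control replicate 3 at 8.63 and on 2 livers of the 0.05% group at 8.15 and 7.84. Acot3 and Cyp4a14, which are also PPARA targets, differed by 0.99 ± 1.65 and 0.76 ± 1.33. Without control replicate 3 these were 0.64 and 0.41, and without 0.05% replicate 2 Cyp4a14 gave 0.41.

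Genes of fasting, oxidation and stress are given list by list. Of 39 PPARA targets 25 were above 0, with a median of 0.09 and medians of 0.21, 0.25 and -0.14 by diet, and 0.03 overall without control replicate 3. Cpt1a, the gate of mitochondrial fatty acid oxidation, differed by -0.05 ± 0.19. Of the gluconeogenic genes, Pck1 was separated in every diet but not in the same direction, at -0.62, -0.34 and 0.91, and G6pc was separated in controls only, at 1.12. Igfbp1, a fasting and insulin responsive gene, was separated and higher in controls (1.25) and separated and lower at 0.05% (-0.998). Fgf21, a fasting hormone, overlapped in every diet (-0.21 ± 1.495). Asns, the asparagine synthetase of the amino acid response, was lower by -2.22 in controls and -1.94 at 0.05% and gave 0.31 at 1%. The list for the response to unfolded proteins, with chaperones of the endoplasmic reticulum, had 20 of 25 members under 0 and a median of -0.26. Its medians by diet were -0.29 in controls, -0.58 at 0.05%, where Creld2 differed by -1.57, and 0.19 at 1%. In the 1% group 17 members were above 0 and 8 under 0. Separated and lower were 7 of the 25 in controls, 18 at 0.05% and 0 at 1%, beside 9.98%, 12.7% and 3.99% of all tested genes. Separated and higher were 1, 1 and 3, beside 12.8%, 10.3% and 4.94%. Cytosolic heat shock genes were lower in 15 of 18 cases, with medians of -0.71 at 0.05% and -0.15 at 1%. In controls the median was 0.10, and -0.01 on values as deposited, where that of all tested genes was -0.09. Hspb1, a small heat shock protein, had the largest difference of the heat shock genes (-0.86 ± 0.73). Of 22 NRF2 targets 10 were above 0, with a median of -0.05 and medians of 0.25, 0.08 and -0.41 by diet. Hmox1, the NRF2 target with the largest difference, was -0.73 ± 0.45, and -0.34 without replicate 1 of the 1% group, a low liver at 10.95. Of 54 genes of oxidative phosphorylation 45 were above 0, at a median of 0.08, and by diet 52, 38 and 35 were above 0, at medians of 0.16, 0.07 and 0.01.

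Clock genes are given because the killing hour is not in the labels. Of 18 tested 15 were above 0, with a median of 0.22 and medians of 0.29, 0.07 and 0.14 by diet. Dbp, a clock output factor with a steep daily rhythm, differed by -0.01 in controls, 2.501 at 0.05%, where the classes did not overlap, and 0.53 at 1%. In controls 1 high and 1 low liver had Dbp values of 9.60 and 8.93, and the other 4 lay between 5.39 and 6.14. Per1 (0.17 ± 0.28) and Arntl (-0.16 ± 0.35) had smaller differences, and Arntl was separated and lower at 0.05%. The 3 high control livers had Rgs16 values of 10.62, 9.76 and 9.65 and the 3 low ones 7.49, 5.89 and 5.42. At 0.05% quercetin the values were 10.78, 10.63 and 10.15 in high and 8.73, 7.10 and 6.19 in low livers. At 1% they were 8.79, 6.90 and 6.22 in high and 8.93, 8.81 and 7.89 in low livers. Rgs16, a regulator of G protein signalling, had the largest positive difference of all tested genes and was named after its values were seen. Its high and low livers did not overlap in the control and 0.05% groups (3.75 and 3.18), and its sign was the opposite at 1% (-1.24), where the classes overlapped. Sucnr1, the succinate receptor (1.28 ± 1.05), and Aqp8, a water channel (1.19 ± 1.08), picked in the same way, also separated in those groups only. Cyp7a1, which starts the main route of bile acid synthesis, did not separate in any diet (-0.09 ± 0.45). The plot of list medians shows all lists with at least 5 tested members.

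**Figure D5:**
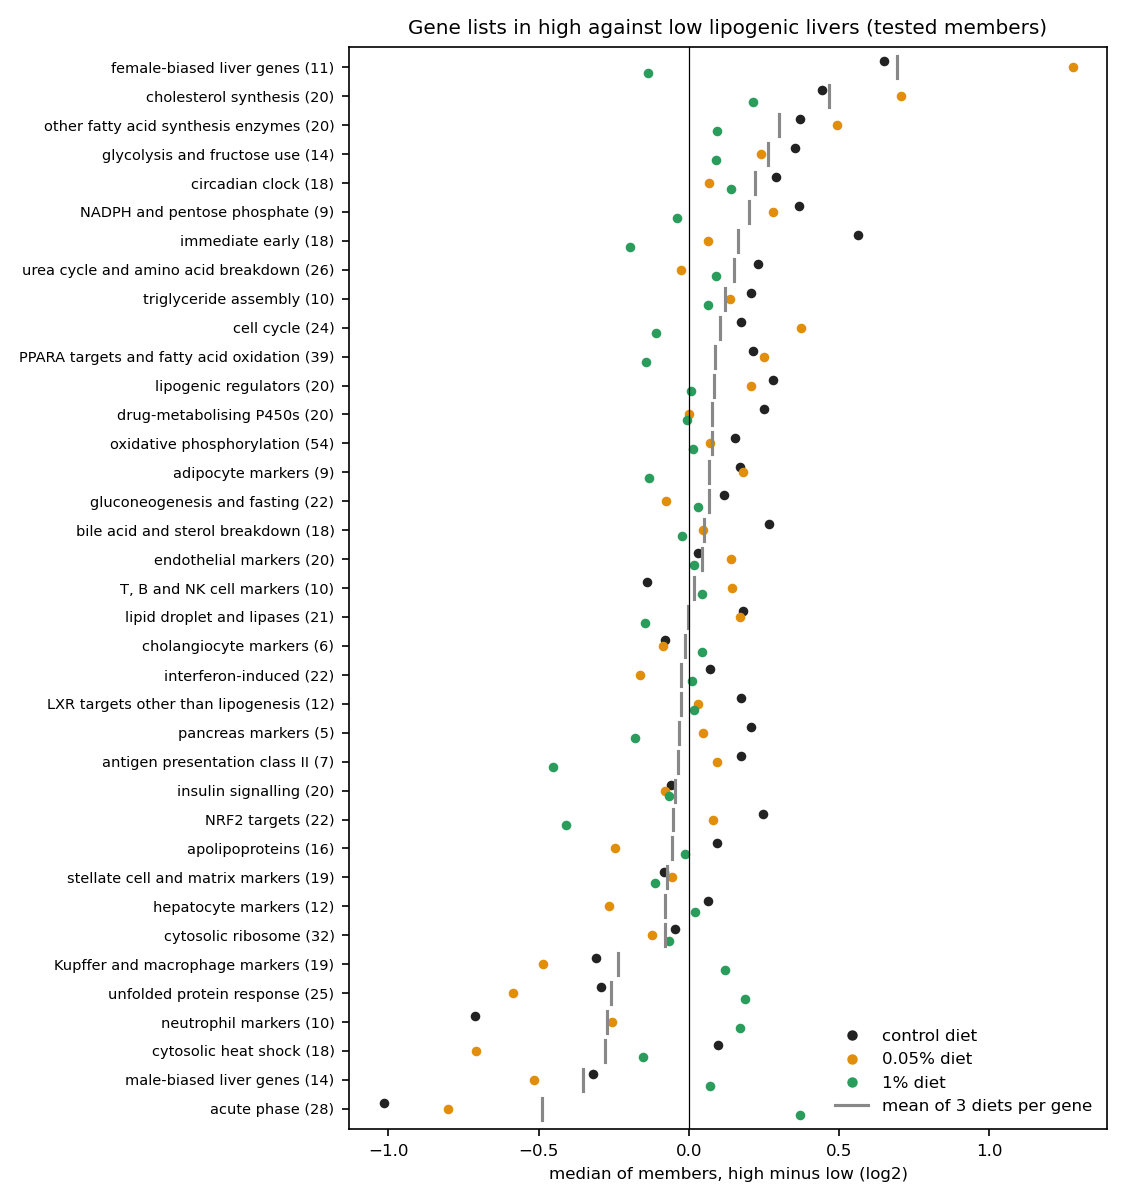
Median high minus low difference (log2) of the tested members of each gene list with at least 5 tested members, within the control, 0.05% and 1% quercetin groups (dots) and for the mean of the 3 diets (grey bars). Numbers of tested members stand in brackets. Acute phase genes have the lowest median (-0.49) and female-biased genes the highest (0.69), and the 1% dots of both lie on the other side of 0.

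Diet, unlike the split, comes from the labels and was tested. The score was 11.27 ± 0.89 in controls, 10.84 ± 0.76 at 0.05% and 10.08 ± 0.39 at 1% quercetin (mean ± SD, n = 6 mice each). The score at 1% was lower than in controls by 1.20, with 6 of 6 livers under the control mean and 4 under every control liver (exact permutation test, two-sided, p = 0.0108, adjusted over 3 pairs 0.0325). The adjusted p was 0.0520 to 0.0844 when control replicate 1, 2 or 3 or 1% replicate 1, 2, 3 or 4 was left out, and 0.0649 with array medians set over all probe sets. The 0.05% group differed from controls by -0.43 (exact permutation p = 0.383) and the 1% from the 0.05% group by -0.76 (exact permutation p = 0.0541, adjusted 0.0812, and 0.0195 without 0.05% replicate 3). The 4 genes of the score were picked with earlier results of these data known, so these values are no independent evidence for the direction. In the limma fit over all 12885 genes none of the 4 passed between 1% and control. Thrsp changed by -1.69 ± 0.44 (SE, limma adjusted p = 0.315), Fasn by -1.37 ± 0.46 (0.428), Elovl6 by -1.02 ± 0.37 (0.443) and Acly by -0.70 ± 0.31 (0.545). All 4 were among the 600 genes lower at an unadjusted p under 0.05 (4.66%).

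Tead1, a DNA-binding partner of the Hippo pathway, was the only gene that passed in that comparison (0.00776% of those tested). It rose by 0.61 ± 0.09 from 6.59 ± 0.14 in controls to 7.20 ± 0.15 at 1% quercetin (SD, n = 6, limma adjusted p = 0.0225). The call was lost without control replicate 1, 2, 4, 5 or 6, without 1% replicate 2 or 3, on values as deposited and in a fit of the 12 arrays compared. No gene passed between 0.05% and control (0.0%) or between 1% and 0.05% (0.0%) in limma, where 656 (5.09%) and 1098 (8.52%) genes had an unadjusted p under 0.05, as 1099 (8.53%) had between 1% and control. Among the genes that the naming rule gives for high against low, the score genes left out, Lpin1 (-1.37 ± 0.34), Tat (-1.11 ± 0.30), an enzyme of tyrosine breakdown, Dgat2 (-0.44 ± 0.12) and Mvd (-0.99 ± 0.30) had the smallest p between 1% and control (limma adjusted p from 0.315 to 0.408). Between 0.05% and control these were Ppara (0.78 ± 0.17), Per1 (-0.86 ± 0.23), Lpin1 (-1.06 ± 0.34) and Igfbp1 (-0.86 ± 0.40), with limma adjusted p from 0.431 to 0.948. Between 1% and 0.05% they were Ppara (-0.77 ± 0.17), Hspb1 (1.15 ± 0.37), Sesn3 (-0.40 ± 0.14) and Tat (-0.84 ± 0.30), with limma adjusted p from 0.297 to 0.476. The comparisons share groups, so their values are not independent. In the list of other fatty acid synthesis enzymes 18 of 20 were lower at 1% than in controls, with a median of -0.20 and 1 at an unadjusted p under 0.05, beside a median of -0.01 over all genes. For cholesterol synthesis 10 of 20 were lower, with 1 at an unadjusted p under 0.05.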

How the data were processed

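Liver RNA of 18 mice was labelled with a 3' IVT kit and hybridised, 1 mouse per Affymetrix array. The deposited values are linear probe set intensities from 0.0118 to 18108, for which the sources used here give neither signal software nor scaling. They were not on a common median, which ran from 14.2 to 22.0. Here 16 was added, log2 taken of the deposited intensity and array medians equalised over the tested genes, by shifts of -0.27 to 0.26. Of 45101 probe sets 34945 have 1 gene symbol in the platform annotation, 932 several and 9160 none. The probe set with the highest mean stood for a gene, and 12885 genes above the 40th percentile (log2 4.69) were tested. On 13 named genes another probe set had the opposite sign.

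The 4 score genes, the gene lists and the tests were chosen with earlier results of these data known. High and low livers were compared within each diet, without a test. Genes were named where they separated in all 3 diets (12 largest each way), from a preset list, or as the leading members of each gene list, and any others after their values were seen. Diets were compared with limma 3.58.1 in R 4.3.3 (all 18 arrays, Benjamini-Hochberg, adjusted p under 0.05) and by exact permutation of the score, with Python 3.11.15. Both calculations were tested on simulated data. Replicate numbers were not shown to pair mice: of 18 same-numbered pairs, correlations ran from -0.466 to 0.325 and 3 exceeded 0.1. These values cannot exclude pairing, since class followed the number in opposite order in the control and 0.05% groups. Precision is limited by the number of arrays. Alternatives were scaling, added constant, probe set rule, filter, score genes and leaving out arrays.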

Additional observations from a re-analysis of the deposited data

Results flagged for a closer look

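Dixon's criterion (0.625 for 6 samples) was applied to the lipogenic score and to the list means, 126 groups of 6 livers in all. In 11 of these groups, all of them list means, 1 liver stood apart, where chance gives about 1 in 20 groups. These 11 values came from 5 livers, and control replicate 3, a high liver, accounted for 6 of them. Its list mean, centred on all 18 livers, was 0.345 for PPARA targets, 0.344 for lipid droplet genes, -0.95 for male-biased genes, 1.07 for female-biased genes, 0.361 for adipocyte markers and 0.418 for class II antigen presentation. The other control livers lay between -0.496 and -0.226 for PPARA targets and between -0.739 and -0.308 for female-biased genes. Clock genes were lowest in 0.05% replicate 2 (-0.331) and 1% replicate 4 (-0.516), both low livers. In 1% replicate 4 cell cycle genes were also high, at 0.264. NRF2 targets were highest in 1% replicate 1, at 1.08, against -0.131 to 0.153 in the rest of its group. Antigen presentation was lowest in 0.05% replicate 1, at -0.379.

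Of 84 named genes, 6 had all high livers above all low livers in 1 diet and all below in another. The share of all tested genes that did so was not computed, so the count is not read as a trait of these genes. Within single diets, 4.94% to 12.8% of all tested genes were separated and higher and 3.99% to 12.7% separated and lower. No difference between diets was tested for them. Igfbp1 differed by 1.25 in controls and -0.998 at 0.05% quercetin. Pck1 differed by -0.617 in controls, -0.342 at 0.05% and 0.912 at 1%. Tat differed by 0.848, -0.633 and 1.14. Insig2 had 0.304 at 0.05% and -0.369 at 1%. Scd1 had 0.126 in controls and -0.23 at 0.05% on a probe set whose 18 values all lay near the top of the range, while its other probe set had 0.65 and 1.03, so no reversal is read from it. Upk1b, a urothelial and mesothelial membrane protein, had 0.938 in controls and -0.218 at 1%.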

How the results depend on the processing

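The split rests on 3 against 3 livers per diet and, in the 1% group, on a gap of 0.05 at the line. Separated genes, 21 higher and 8 lower in the main setting, numbered 7 and 1 as deposited, 36 and 1 with the livers ranked again on those values, 34 and 1 with medians over all probe sets, 37 higher with probe sets averaged, 237 and 174 for 2 against 2 livers, and 3 and 0 at a difference of at least 0.5. Of the 29 genes 3 were shared as deposited, 0 with the livers ranked again, 12 with medians over all probe sets, 13 with probe sets averaged, 18 with quantile normalization, 19 with 1 added, 17 without a filter and 21 at the 60th percentile. Lower genes numbered 5 with quantile normalization, 4 with 1 added, 5 without a filter and 5 at the 60th percentile. They numbered 3 with Fasn and 3 with Acly out of the score. Chosen after seeing the data, leaving out the 1% livers at the line gave 102 and 24, and the control and 0.05% livers alone 427 and 253. Leaving out 1 liver gave 21 to 81 and 10 to 31. Of 3269 alternative values of 84 named genes, 81 moved by at least the SD over the 3 diets, as did 58 of 1597 list medians. That SD is wide where the diets disagree, and a value staying within it is then no sign of stability. None of the 21 separated genes recomputed changed sign, but these were chosen for separation on the same arrays. List medians near 0 did change sign, such as that of adipocyte markers without control replicate 3 (-0.09). At the 60th percentile the muscle and mesothelial lists had no tested member. As deposited, the median of all genes at 0.05% was 0.28.

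The 1% against control count of 1 became 0 as deposited, with medians over all probe sets, with probe sets averaged, without a filter and in the 12 arrays alone, 4 at an adjusted p of 0.10, and 0 to 3 with 1 liver left out. For 1% against 0.05% the count of 0 became 2 at 0.10, 10 in the 12 arrays and 0 to 1 with 1 left out, and for 0.05% against control 0 to 1. The score difference between 1% and control was -1.20 with medians over all probe sets (adjusted exact permutation p = 0.0649) and -0.97 to -1.45 with 1 liver left out. The other pairs ran from -0.62 to -0.97 and from -0.20 to -0.69. With the replicate number as a block, which is not shown to pair mice, the counts were 1 (Osgin1 in place of Tead1), 0 and 0, and the score difference -1.20 (adjusted exact permutation p = 0.0938). For high against low the block was added after seeing the data, since class followed the number in 2 diets. All 21 higher and 8 lower genes kept their sign, but they were chosen for separation on the same arrays, so this is no independent check. List medians became 0.51 for cholesterol synthesis, 0.33 for fatty acid synthesis, -0.69 for the acute phase and 0.69 for female-biased genes. Separation itself has no blocked form. The causes were not tested.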
